A study of Mus musculus with 16 samples.

Results

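The hexosamine biosynthetic pathway branches from glycolysis at fructose-6-phosphate and ends in UDP-GlcNAc, the sugar donor for glycan synthesis and for O-GlcNAc, a single sugar placed on serines and threonines of nuclear, cytosolic and mitochondrial proteins. Glutamine-fructose-6-phosphate transaminase, encoded by Gfpt1 and Gfpt2, takes the committed step. Gnpnat1, Pgm3 and Uap1 encode the next enzymes in order, Nagk encodes the kinase that salvages free GlcNAc into the pathway, Ogt encodes the transferase that adds O-GlcNAc and Oga encodes the hydrolase that removes it. In the heart, the pathway is known as a nutrient and stress sensor. These 8 genes, taken by name, are described here among the 55492 genes of the deposited table, and all 8 passed the filter for testing, a mean of at least 10 normalized counts over the libraries.

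RNA was sequenced from frozen, pulverized left ventricles of 16 male C57BL/6 mice aged 8 to 12 weeks, with 1 mouse per library. Control mice (PKM2fl/fl) carry loxP sites around the PKM2-specific exon of Pkm and no deletion. The PKM2-/- mice lack that exon in every tissue, since it was removed in the germline by Cre under a CMV promoter, after which Cre was bred out, so the heart was not the only organ to lose PKM2, an isoform of the last enzyme of glycolysis. Each genotype gave 2 mice at baseline, without surgery, and 3 mice at 3 days after each of sham surgery and myocardial infarction (MI), the latter by permanent ligation of the left anterior descending coronary artery. The MI libraries came from pulverized ventricle, and which share of each sample was infarct was not given in the sources used here.

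Total reads per library ranged from 20623769 to 71855101. Loci related to rRNA took 15.8% to 46.1% of a library's reads, with 39.7% to 43.9% in the PKM2-/- baseline hearts against 17.3% to 22.1% in the PKM2fl/fl baseline hearts. Pearson correlation of a member with that share over the 16 libraries, as a description, lay between -0.44 (Oga) and 0.20 (Gfpt1). The deletion could not be checked in these values, because the table counts Pkm as a whole gene. Pkm had 7779 to 12076 normalized counts in the PKM2fl/fl hearts and 10120 to 16113 in the PKM2-/- hearts. Defining cardiomyocyte markers were present in every group, none of the 8 being at 0 on average. Their summed level was 969017 to 1220402 normalized counts in the 10 hearts without MI and 202552 to 471165 in the 6 hearts after MI. Summed markers of fibroblasts and of macrophages and monocytes moved the other way, as given below beside the MI comparison. Fewer cells of a type and less RNA per cell cannot be told apart in such bulk samples.

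Throughout, a normalized count is the number of reads on a gene divided by the DESeq2 size factor of the library, and a log2 fold change is a difference of group means of log2(normalized count + 1). A gene is called changed at a Benjamini-Hochberg adjusted p under 0.05 over the 20576 genes tested with limma. The study itself also asked for at least a 2-fold change. Replicates are separate mice. Groups that do not overlap are given as a description of a gene's values. The share of all genes whose groups separate in the same way was not counted.

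Per kilobase of the canonical transcript, the mean level over the 16 hearts was highest for Uap1 (642 normalized counts per kb), Ogt (619) and Oga (558) and lowest for Nagk (115) and Pgm3 (77.2). Gnpnat1 (351), Gfpt2 (348) and Gfpt1 (142) lay between. This order depends on the transcript length used. With all annotated exons as the length, Ogt (407) and Oga (307) led, Uap1 (168) followed, and Gnpnat1 dropped to 49.6, while Pgm3 stayed lowest at 19.6. The counts behind the 8 genes were 106 to 7366 reads per library, with the fewest for Nagk and Pgm3 and the most for Ogt and Oga.

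**Figure D1:**
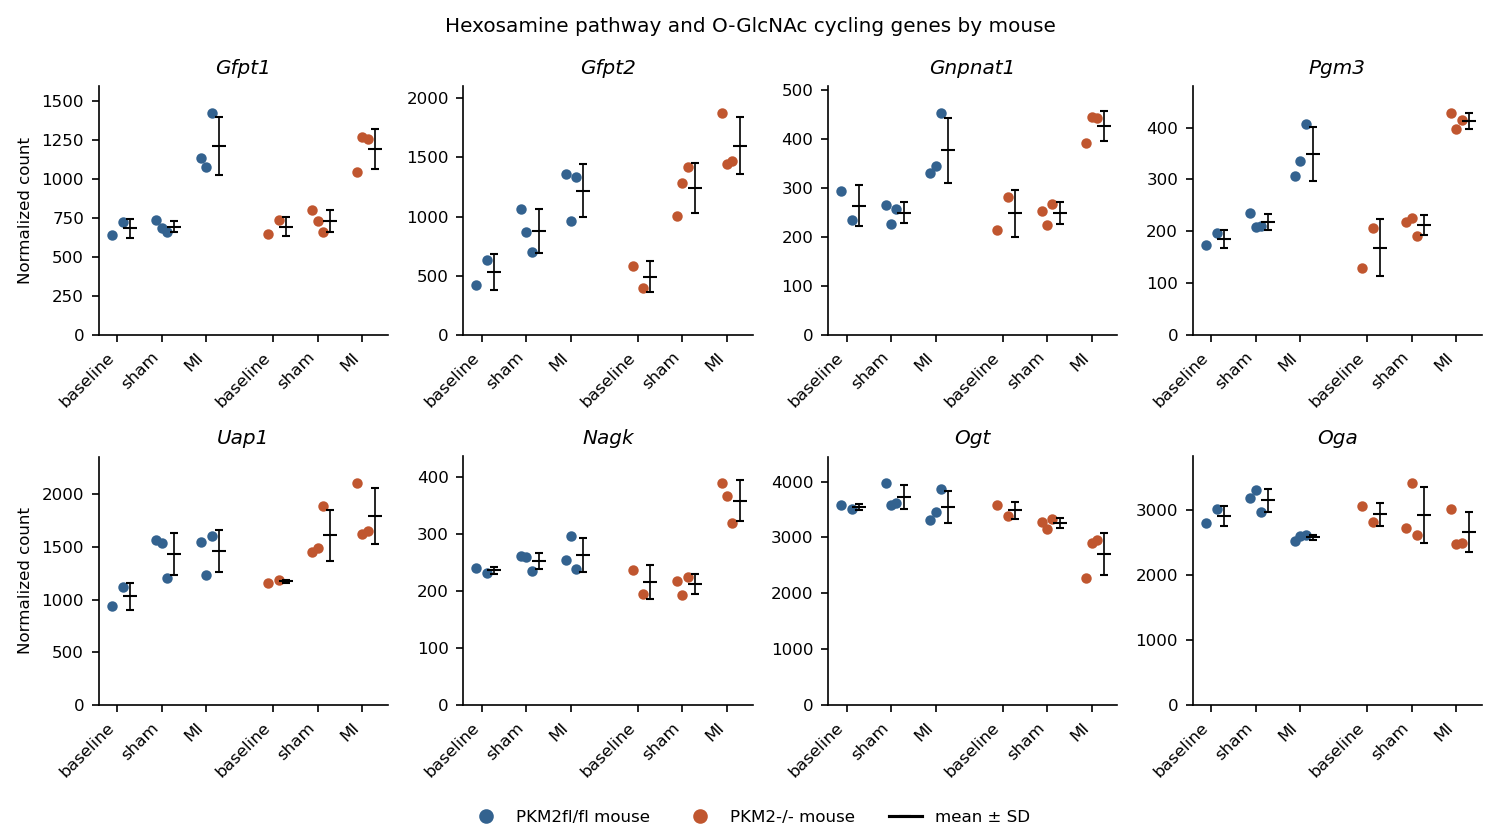
Normalized counts of the 8 genes (y axes, linear, from 0) in each of the 16 mice by condition, with PKM2fl/fl mice in blue, PKM2-/- mice in orange, and the group mean ± SD as black bars. Gfpt1, Gnpnat1 and Pgm3 lay higher in all 6 MI hearts than in all 10 other hearts, whereas Nagk stood apart in the 3 PKM2-/- MI hearts.

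Gfpt1, the transaminase isoform found in most tissues, rose after MI in both genotypes. In PKM2fl/fl hearts it had 734, 684 and 662 normalized counts after sham surgery and 1135, 1075 and 1424 after MI. The PKM2-/- hearts had 799, 727 and 660 after sham surgery and 1041, 1267 and 1258 after MI. Every MI heart was above every other heart of the 16, the highest value without MI being 799 and the lowest with MI 1041. The rise was 1.73-fold in PKM2fl/fl hearts (log2 fold change 0.79 ± 0.12, SE, adjusted p = 7.76e-05) and 1.63-fold in PKM2-/- hearts (0.70 ± 0.12, adjusted p = 1.64e-04). Baseline hearts, at 637 and 726 in PKM2fl/fl and 649 and 737 in PKM2-/-, overlapped the sham hearts of both genotypes.

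Gfpt2, the second isoform, followed another course, in that it was already higher after sham surgery. Its normalized counts were 423 and 636 in PKM2fl/fl and 585 and 398 in PKM2-/- baseline hearts. After sham surgery they were 1065, 868 and 699 in PKM2fl/fl hearts and 1008, 1286 and 1421 in PKM2-/- hearts. All sham hearts of either genotype lay above all baseline hearts. The difference passed the test in PKM2-/- hearts, where Gfpt2 rose 2.54-fold (log2 fold change 1.34 ± 0.23, SE, adjusted p = 0.00536). That was the only called change of any of the 8 genes to reach 2-fold. Without the second PKM2-/- baseline heart, which held the lowest value of all, it was 1.07 with an adjusted p of 0.0771. In PKM2fl/fl hearts the value was 0.74 ± 0.23, with an adjusted p of 0.266.

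After MI, Gfpt2 had 1357, 960 and 1335 normalized counts in PKM2fl/fl hearts and 1877, 1443 and 1473 in PKM2-/- hearts. Compared with sham, this was 0.48 ± 0.21 on the log2 scale in PKM2fl/fl hearts (adjusted p = 0.0718), with overlapping values. For PKM2-/- hearts it was 0.37 ± 0.21 (adjusted p = 0.145), although the lowest MI heart, at 1443, was above the highest sham heart, at 1421. Neither passed the threshold, and the 95% intervals of 0.03 to 0.92 and -0.08 to 0.82 leave room for a change as large as that of Gfpt1. The PKM2fl/fl value passed the test without 1 of 2 hearts, namely the first sham heart (0.63, adjusted p = 0.0367) or the second MI heart (0.64, adjusted p = 0.0266). Gfpt2 was also called with libraries scaled to total reads without rRNA-related loci, at 0.60 in PKM2fl/fl (adjusted p = 0.0154) and 0.72 in PKM2-/- hearts (adjusted p = 0.00358), and by edgeR without a filter on low counts, at 0.45 (adjusted p = 0.00417) and 0.39 (adjusted p = 0.0164). With scaling to all reads it was called in PKM2-/- hearts, at 0.88 (adjusted p = 0.0121), and not in PKM2fl/fl hearts, at 0.30 (adjusted p = 0.499).

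The ratio of the isoforms' counts within each heart does not depend on how libraries are scaled. These counts were not divided by transcript length, so the sign of the log2 ratio does not tell which isoform was higher. Per kilobase of the canonical transcript, mean baseline levels were 175 for Gfpt2 and 109 for Gfpt1 in PKM2fl/fl hearts. In PKM2-/- hearts they were 162 and 111. The log2 ratio of Gfpt2 to Gfpt1 normalized counts was -0.59 and -0.19 in PKM2fl/fl and -0.15 and -0.89 in PKM2-/- hearts at baseline. It was 0.54, 0.34 and 0.08 in PKM2fl/fl and 0.33, 0.82 and 1.10 in PKM2-/- hearts after sham surgery, so that all 6 sham hearts were above all 4 baseline hearts. After MI it was 0.26, -0.16 and -0.09 in PKM2fl/fl and 0.85, 0.19 and 0.23 in PKM2-/- hearts. The ratio was therefore 0.33 lower after MI than after sham surgery on average over the genotypes, a difference that did not pass an exact two-sided permutation test within genotypes (p = 0.095, the smallest possible being 0.005). Leaving out the first PKM2-/- MI heart gave -0.43 with p = 0.04 by the same exact permutation test.

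The middle steps of the pathway rose with Gfpt1. Gnpnat1, which encodes the enzyme that acetylates glucosamine-6-phosphate, had 266, 226 and 258 normalized counts in PKM2fl/fl sham hearts and 331, 346 and 455 after MI. The PKM2-/- values were 254, 225 and 269 after sham surgery and 392, 445 and 444 after MI. No MI heart overlapped a sham or baseline heart, baseline being 235 and 294 in PKM2fl/fl and 214 and 282 in PKM2-/- mice. The increase was 49.7% in PKM2fl/fl hearts (log2 fold change 0.58 ± 0.15, SE, adjusted p = 0.00470) and 71.4% in PKM2-/- hearts (0.78 ± 0.15, adjusted p = 4.25e-04). The Gnpnat1 counts are uncertain in one respect. Of its canonical transcript in the GENCODE M39 annotation, 75.6% lies opposite exons of Styx on the other strand, and neither the kit as described nor the counting is stated to use strand. Styx itself was 0.20 higher after MI in PKM2fl/fl hearts (adjusted p = 0.217) and 0.34 higher in PKM2-/- hearts (adjusted p = 0.0366), in log2 units.

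Pgm3, encoding the mutase that turns GlcNAc-6-phosphate into GlcNAc-1-phosphate, had the largest MI change of the 8 genes in PKM2-/- hearts. There it went from 219, 226 and 190 normalized counts after sham surgery to 429, 398 and 414 after MI, a 1.96-fold rise (log2 fold change 0.97 ± 0.16, SE, adjusted p = 1.15e-04). In PKM2fl/fl hearts it went from 235, 207 and 210 to 306, 335 and 406, which was 1.59-fold (0.67 ± 0.16, adjusted p = 0.00277). All MI hearts were above all others, and the baseline hearts had 173 and 197 in PKM2fl/fl and 129 and 207 in PKM2-/- mice. Exons of Dop1a on the opposite strand cover 29.6% of the canonical Pgm3 transcript. Dop1a had a log2 fold change of -0.11 in PKM2fl/fl hearts (adjusted p = 0.284) and fell by 0.22 in PKM2-/- hearts (adjusted p = 0.0400), the direction opposite to that of Pgm3.

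Gfpt1 and Pgm3 held the same short motif near their starts. XBP1, a transcription factor of the unfolded protein response, is known to bind sites of this kind, and the RefSeq windows of GRCm38.p6, from 250 bases before to 49 after a start, were searched on both strands for ACGTGGC. On the other strand the motif reads GCCACGT. Of 32851 windows over all genes, 2.58% held it. Among the members, 7 of 8 had a window, with none for Gnpnat1, and the motif was in those of Gfpt1 and Pgm3. It was in no window of Gfpt2, Uap1, Ogt, Oga or Nagk, the last of which was called higher after MI in PKM2-/- hearts. The motif was chosen with these windows in view. A match says only that the letters are there, and whether the motif bears on the MI changes was not tested. The 250 bases before the Gfpt1 start (chr6:87042596-87042845, forward strand) are shown with the motif in capitals. There it runs from position -124 to -118, counted with the start base as 0. The same stretch of Gfpt2 (chr11:49793905-49794154, forward strand), the other transaminase gene, is shown next and had no match. For Pgm3 the 30 bases around the motif are shown (chr9:86571802-86571831, reverse strand), where it lies at positions 22 to 28, after the start.
Gfpt1: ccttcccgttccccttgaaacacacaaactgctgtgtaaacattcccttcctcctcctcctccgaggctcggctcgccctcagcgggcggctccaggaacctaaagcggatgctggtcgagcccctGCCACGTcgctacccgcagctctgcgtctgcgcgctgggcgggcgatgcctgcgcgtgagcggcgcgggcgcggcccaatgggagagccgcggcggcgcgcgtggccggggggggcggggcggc
Gfpt2: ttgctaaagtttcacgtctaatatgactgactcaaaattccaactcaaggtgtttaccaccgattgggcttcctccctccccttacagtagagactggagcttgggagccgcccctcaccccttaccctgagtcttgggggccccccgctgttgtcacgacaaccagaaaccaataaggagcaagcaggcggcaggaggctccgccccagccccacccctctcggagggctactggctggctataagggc
Pgm3: agcaaagctggGCCACGTctgcgaggtctg
Another 2 motifs, the ER stress element known as ERSE and an ATF4-type site, TGATGCAA, were in 0.119% and 0.895% of all windows and in none of the members' windows.

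Uap1, which encodes the pyrophosphorylase that forms UDP-GlcNAc, did not pass the test after MI. It had 1558, 1537 and 1200 normalized counts in PKM2fl/fl sham hearts and 1543, 1229 and 1598 after MI (log2 fold change 0.03 ± 0.15, SE, 95% interval -0.28 to 0.34, adjusted p = 0.897). The PKM2-/- hearts had 1453, 1485 and 1881 after sham surgery and 2100, 1618 and 1650 after MI (0.16 ± 0.15, interval -0.15 to 0.46, adjusted p = 0.382). With libraries scaled to total reads without rRNA-related loci, the PKM2-/- value was 0.51 and passed (adjusted p = 0.00714). Like Gfpt2, it lay higher in all 6 sham hearts than in the 4 baseline hearts, which had 941 and 1118 in PKM2fl/fl and 1160 and 1182 in PKM2-/- mice. The sham difference was 0.47 ± 0.16 in PKM2fl/fl (adjusted p = 0.324) and 0.45 ± 0.16 in PKM2-/- hearts (adjusted p = 0.136), and neither passed.

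Nagk, the salvage kinase, was the member whose MI change differed most between the genotypes. In PKM2fl/fl hearts it had 261, 260 and 236 normalized counts after sham surgery and 255, 297 and 239 after MI, which overlapped (log2 fold change 0.06 ± 0.13, SE, interval -0.21 to 0.33, adjusted p = 0.727). In PKM2-/- hearts it went from 219, 193 and 225 to 389, 367 and 319, with no overlap. That rise was 1.68-fold (0.75 ± 0.13, adjusted p = 1.45e-04). The baseline hearts, at 241 and 232 in PKM2fl/fl and 237 and 194 in PKM2-/- mice, overlapped each other. Tested directly, the difference between the genotypes in the MI change was 0.69 ± 0.18 (interval 0.30 to 1.08), with an adjusted p of 0.369, so it did not pass over all genes tested.

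**Figure D2:**
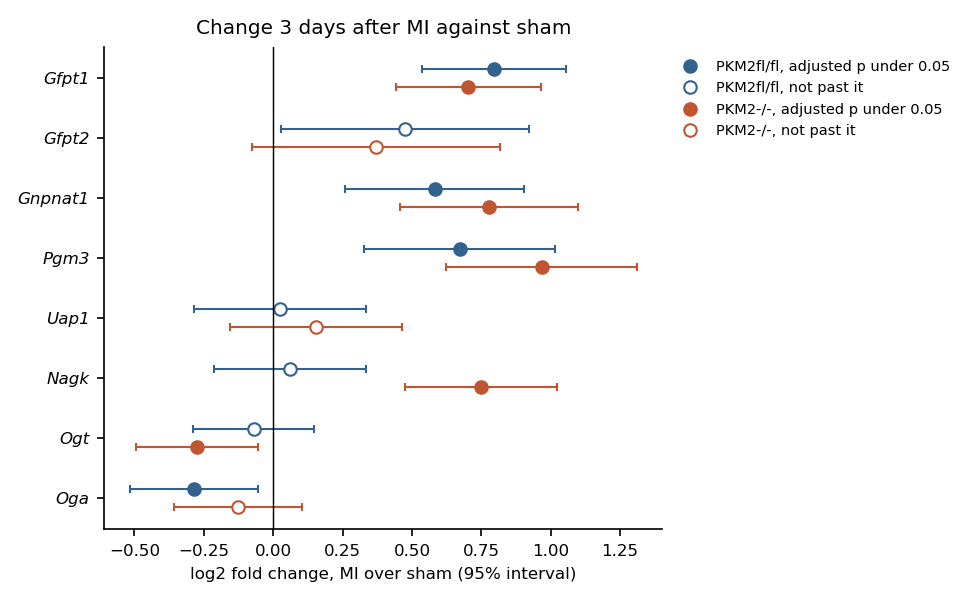
Log2 fold change of MI over sham (x axis) with its 95% interval for the 8 genes (rows) in PKM2fl/fl (blue) and PKM2-/- hearts (orange), filled where the adjusted p is under 0.05. Gfpt1, Gnpnat1 and Pgm3 are filled on the right in both genotypes, Nagk in PKM2-/- hearts (0.75), Oga on the left in PKM2fl/fl hearts (-0.29) and Ogt on the left in PKM2-/- hearts (-0.27).

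Ogt and Oga, which encode the enzymes that add and remove O-GlcNAc, were each called lower after MI in 1 genotype. Ogt had 3970, 3575 and 3611 normalized counts in PKM2fl/fl sham hearts and 3305, 3460 and 3867 after MI, and the groups overlapped (log2 fold change -0.07 ± 0.10, SE, adjusted p = 0.593). Among PKM2-/- hearts it went from 3281, 3150 and 3332 to 2278, 2894 and 2957, with all MI hearts lower (-0.27 ± 0.10, adjusted p = 0.0336). The first PKM2-/- MI heart, at 2278, was the lowest of the 16. Without it the difference was -0.15 with an adjusted p of 0.183, and with libraries scaled to total reads Ogt was 0.24 higher after MI (adjusted p = 0.528). At baseline Ogt had 3587 and 3503 in PKM2fl/fl and 3589 and 3381 in PKM2-/- hearts.

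Oga, the hydrolase, had 3182, 3308 and 2965 normalized counts in PKM2fl/fl sham hearts and 2532, 2595 and 2617 after MI, again with all MI hearts lower (log2 fold change -0.29 ± 0.11, SE, adjusted p = 0.0378). The PKM2-/- hearts had 2730, 3415 and 2622 after sham surgery and 3021, 2482 and 2499 after MI, which overlapped (-0.13 ± 0.11, adjusted p = 0.331). Baseline values were 2807 and 3015 in PKM2fl/fl and 3061 and 2815 in PKM2-/- hearts. The PKM2fl/fl call lies near the threshold and was lost when any of 5 of the 6 hearts was left out, with adjusted p from 0.0533 to 0.117. In all it was lost in 10 of 16 alternatives. These included scaling to total reads (-0.46, adjusted p = 0.273) and to total reads without rRNA-related loci (-0.16, adjusted p = 0.423). With the rRNA-related share as a covariate it was -0.19 (adjusted p = 0.219). Of the canonical Oga transcript, 10.8% lies opposite the non-coding gene Gm15491, which fell by 0.73 in PKM2fl/fl hearts after MI (adjusted p = 0.00015).

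Within each heart, the log2 ratio of Ogt to Oga normalized counts was 0.11 to 0.32 in PKM2fl/fl sham hearts and 0.38, 0.41 and 0.56 after MI, so that these groups did not overlap. Among PKM2-/- hearts it was -0.12 to 0.35 after sham surgery and -0.41, 0.22 and 0.24 after MI, with the first MI heart far below the others. Over both genotypes the ratio was 0.04 higher after MI (exact permutation test, two-sided, p = 0.83).

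**Figure D3:**
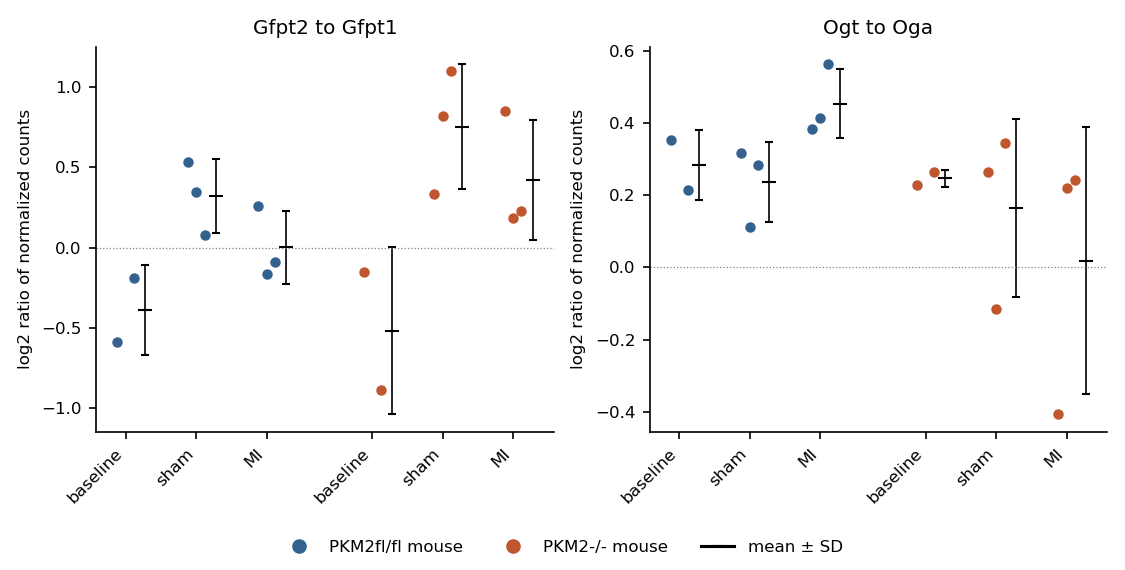
Log2 ratio of normalized counts within each heart (y axis) for Gfpt2 to Gfpt1 (left) and Ogt to Oga (right) by condition, with PKM2fl/fl mice in blue, PKM2-/- mice in orange, and bars for mean ± SD. Gfpt2 to Gfpt1 was lower in all 4 baseline hearts than in all 6 sham hearts, and Ogt to Oga was lowest, at -0.41, in the first PKM2-/- MI heart. Counts were not divided by transcript length, so 0 does not mark equal levels.

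In count, 3 of the 8 genes were higher and 1 lower after MI in PKM2fl/fl hearts, against 24.8% higher and 25.3% lower of all genes tested. In PKM2-/- hearts 4 were higher and 1 lower, against 28.7% and 28.1% of all genes. The median log2 fold change of the 8 was 0.27 in PKM2fl/fl and 0.54 in PKM2-/- hearts, beside -0.0025 and 0.01 for all genes tested. With libraries scaled to total reads, none of the 8 passed in PKM2fl/fl hearts, where Gfpt1 was at 0.62 (adjusted p = 0.108), Gnpnat1 at 0.41 and Pgm3 at 0.50. All 4 rises in PKM2-/- hearts passed under that scaling, with Gfpt1 at 1.22, Gnpnat1 at 1.29, Pgm3 at 1.48 and Nagk at 1.26, as did Gfpt2 at 0.88. Of the 20806 genes tested under that scaling, 35.1% were higher and 9.1% lower after MI in PKM2-/- hearts, and 11.5% were higher and 17.5% lower in PKM2fl/fl hearts. With rRNA-related loci left out of the total, 4 of the 8 passed in PKM2fl/fl hearts. Those were Gfpt1 (0.92), Gnpnat1 (0.71), Pgm3 (0.80) and Gfpt2 (0.60), while Oga did not pass (-0.16). Of the 20643 genes tested in that way, 5659 were higher and 3639 lower in PKM2fl/fl hearts. Markers of some cell types also changed after MI, and counts for further cell types are given with the processing. After MI, 7 of 8 cardiomyocyte markers fell in PKM2fl/fl hearts and 8 of 8 in PKM2-/- hearts. In both genotypes 8 of 8 macrophage and monocyte markers rose, and 6 of 8 fibroblast markers rose while 1 fell. Of 5 neutrophil markers tested, 2 rose in each genotype. Summed macrophage and monocyte markers went from 5431 to 10332 normalized counts in the 6 sham hearts to 21424 to 36691 in the 6 MI hearts, and fibroblast markers from 25357 to 46994 to 143683 to 198375. Their part in the changes of the 8 genes was not tested.

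Loss of PKM2 was compared in each condition. None of the 8 genes passed at baseline, where 0.00972% of all genes did, and none was called by edgeR or DESeq2. None had an unadjusted p under 0.05 either, beside 748 of the 20576 genes tested. The largest baseline difference was that of Uap1, at 0.19 ± 0.18 (log2, PKM2-/- over PKM2fl/fl), and the 95% intervals, which reached at most 0.65 from 0 in either direction, do not cover a 2-fold difference for any of the 8. That holds for the size-factor scaling with all hearts. With libraries scaled to total reads the 8 values lay between -0.76 (Pgm3) and -0.40 (Uap1), none of them called, and without the second PKM2-/- baseline heart the Pgm3 value was -0.51. After sham surgery none passed, beside 0.00972% of all genes. Of the 20576 genes tested, 2047 had an unadjusted p under 0.05, and 1 of the 8 did. That was Gfpt2, at 0.50 ± 0.21 (adjusted p = 0.437), where the groups overlapped, and it was called by edgeR without a filter on low counts (adjusted p = 0.0286) but not with one or by DESeq2.

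After MI, 0.967% of all genes passed and none of the 8 did with limma. An unadjusted p under 0.05 was held by 3492 of the 20576 genes tested and by 2 of the 8. Those were Ogt, lower in all PKM2-/- MI hearts than in all PKM2fl/fl MI hearts (-0.39 ± 0.10, adjusted p = 0.0730), and Nagk, higher in all of them (0.44 ± 0.13, adjusted p = 0.0992). DESeq2 on the recovered reads called both, with adjusted p = 0.0128 for Ogt and 0.0312 for Nagk, and edgeR called neither. The count over all genes rested on single hearts. It was 199 with all hearts, 2279 without the third PKM2fl/fl MI heart, and 11 to 48 without any other of the 6 MI hearts, the lowest being without the third PKM2-/- one. Gfpt2 (0.40 ± 0.21) and Uap1 (0.30 ± 0.15) were higher on average in PKM2-/- MI hearts, and neither passed, with adjusted p of 0.352 and 0.318. Neutrophil markers summed to 3529 to 4530 normalized counts in PKM2-/- and 1232 to 2141 in PKM2fl/fl MI hearts, with none of the 5 tested called, and their part in these values was not tested. Of the tests of whether the MI change differed between genotypes, 0% passed over all genes with limma, where 1703 had an unadjusted p under 0.05, edgeR called 0 with a filter on low counts and 538 without one, and DESeq2 called 60. Without the third PKM2fl/fl MI heart limma called 486. With all hearts, none of the 8 was called by limma, edgeR or DESeq2, and Nagk alone had an unadjusted p under 0.05.

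**Figure D4:**
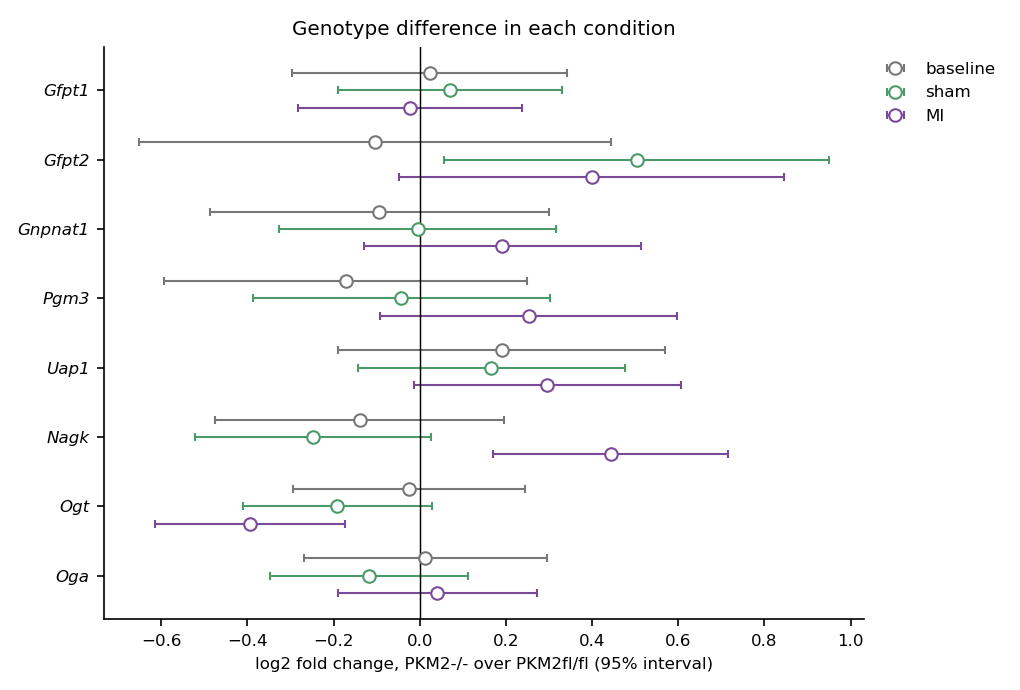
Log2 fold change of PKM2-/- over PKM2fl/fl hearts (x axis) with its 95% interval for the 8 genes (rows) at baseline (grey), after sham surgery (green) and after MI (purple). No value passed the adjusted threshold, and the intervals of Nagk (0.44) and Ogt (-0.39) after MI lie clear of 0, as does that of Gfpt2 after sham surgery (0.50).

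Sham hearts were compared with baseline hearts, which had no surgery. Whatever else differed between these groups of mice cannot be told apart from the operation. In PKM2fl/fl hearts none of the 8 genes passed, beside 0.19% of all genes. Gfpt2 and Uap1 had unadjusted p under 0.05, as had 1813 of the 20576 genes tested. In PKM2-/- hearts 1 of 8 was higher, Gfpt2, and none lower, beside 3.48% and 1.66% of all genes. In the same comparison 5 of 5 tested neutrophil markers, 2 of 8 macrophage and monocyte markers and 3 of 8 fibroblast markers rose, and summed neutrophil markers went from 132 to 167 normalized counts to 974 to 1258. Their part in the Gfpt2 value was not tested. The same summed markers were 82.4 to 187 at baseline and 224 to 1316 after sham surgery in PKM2fl/fl hearts.

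Genes around the pathway were taken from 4 lists, whose counts stand beside 24.8% higher and 25.3% lower of all genes tested in PKM2fl/fl hearts and 28.7% and 28.1% in PKM2-/- hearts. Of 14 genes that supply, return or divert its intermediates, 8 rose and 2 fell after MI in PKM2fl/fl hearts and 9 rose and 2 fell in PKM2-/- hearts, with median log2 fold changes of 0.70 and 0.78. Those that rose included Nans, the sialic acid synthase (1.10 ± 0.15 and 1.70 ± 0.15), and Galk2, the kinase for free GalNAc (0.84 ± 0.10 and 1.07 ± 0.10). Amdhd2, which takes the acetyl group back off GlcNAc-6-phosphate, rose by 0.84 ± 0.15 and 1.19 ± 0.15, and Uap1l1, a relative of Uap1, by 1.27 ± 0.20 and 1.41 ± 0.20. Hexa, a subunit of the lysosomal hexosaminidase, rose by 0.76 ± 0.10 and 0.83 ± 0.10. The 2 that fell, named after their values were seen, lie at the entry of the pathway, Glul, the glutamine synthetase (-0.86 and -0.80), and Gpi1, which makes fructose-6-phosphate (-0.42 and -0.50).

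Of 20 enzymes that build glycans containing GlcNAc, 14 rose and none fell after MI in PKM2fl/fl hearts. In PKM2-/- hearts 13 rose and 1, Mgat3, fell. Gcnt1, a branching enzyme of O-glycans, rose by 1.65 ± 0.18 and 2.11 ± 0.18 on the log2 scale. Mgat2 and Mgat5, which add branches to N-glycans, rose by 0.95 ± 0.12 and 0.94 ± 0.10 in PKM2fl/fl and by 1.39 ± 0.12 and 0.91 ± 0.10 in PKM2-/- hearts. Gcnt2 rose by 1.16 ± 0.12 and 1.38 ± 0.12. It was the only gene of the 4 lists called between genotypes after MI, a comparison in which 0.967% of all genes tested passed. It had 2018 ± 114 normalized counts in PKM2-/- against 1408 ± 244 in PKM2fl/fl hearts (SD, n = 3 each, adjusted p = 0.0488). That call lies near the threshold, in the comparison whose count over all genes rested on single hearts. Has1, a hyaluronan synthase, rose after sham surgery in PKM2-/- hearts by 1.51 ± 0.34 (adjusted p = 0.0187).

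Of 10 partners and targets of the O-GlcNAc enzymes, 4 rose and 3 fell in PKM2fl/fl hearts, and 4 rose and 4 fell in PKM2-/- hearts. Tet3, a methylcytosine dioxygenase that binds OGT, rose by 0.64 ± 0.10 and 0.70 ± 0.10, and Hcfc1, a nuclear protein that OGT cleaves, by 0.48 ± 0.09 and 0.42 ± 0.09. Trak1 and Trak2, adaptors that carry mitochondria along microtubules, fell by 0.62 ± 0.15 and 0.62 ± 0.14 in PKM2fl/fl hearts and by 0.98 ± 0.15 and 1.03 ± 0.14 in PKM2-/- hearts. Of 16 genes of the unfolded protein response, 8 rose and 4 fell in PKM2fl/fl hearts, and 9 rose and 5 fell in PKM2-/- hearts. Xbp1, named after its values were seen because its motif was searched for, rose by 0.62 ± 0.15 and 0.79 ± 0.15. Atf6 (-0.58 and -0.62), Dnajb9 (-0.70 and -0.65) and Ddit3 (-0.59 and -0.77) of the same list, also named after their values were seen, fell. Hspa5 did not pass, at 0.20 (adjusted p = 0.227) and 0.31 (adjusted p = 0.0513). The part of XBP1 in the changes of the 8 members was not tested. Pdia4, a disulfide isomerase of the endoplasmic reticulum, rose by 1.74 ± 0.15 and 1.56 ± 0.15, while Herpud1, which acts in degradation from that compartment, fell by 1.42 ± 0.16 and 1.57 ± 0.16.

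**Figure D5:**
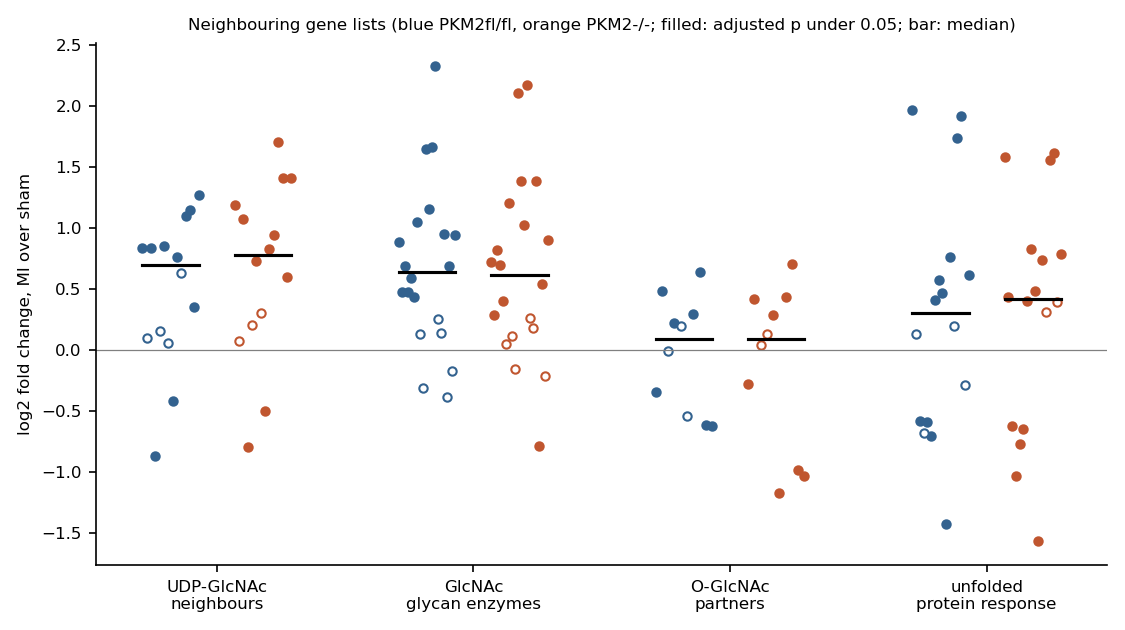
Log2 fold change of MI over sham (y axis) for each gene of 4 lists around the pathway (x axis), with PKM2fl/fl hearts in blue and PKM2-/- hearts in orange, filled where the adjusted p is under 0.05, and the list median as a black bar. The medians lie at 0.70 and 0.78 for UDP-GlcNAc neighbours and at 0.64 and 0.62 for GlcNAc glycan enzymes, in PKM2fl/fl and PKM2-/- hearts respectively.

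For each member, the 3 genes with the most similar levels over the 16 hearts were taken from 11687 genes by Pearson correlation of log2 values, as a description. Gfpt1 was followed most closely by Lpp (r = 0.99), Smchd1 (0.98) and Ncam1 (0.98). Gfpt2 was followed by Osmr (0.97), the oncostatin M receptor, Casp4 (0.95) and Serpina3n (0.95). Uap1 lay nearest to S100a9 (0.93), Ninj1 (0.92) and S100a8 (0.91), of which S100a8 and S100a9 are also on the neutrophil marker list. Gnpnat1 paired with Ddx39 (0.96), Hsd17b12 (0.96) and Odc1 (0.95), and Pgm3 with Rab23 (0.97), Elmo2 (0.96) and Ankrd13a (0.96). For Nagk the nearest were Rpl36a (0.93), Snhg8 (0.90) and Rpl11 (0.89), 2 of them ribosomal protein genes. Ogt was nearest to Mitf (0.92), Meis2 (0.92) and Tubd1 (0.91), and for Oga those given are Scamp1 (0.89) and Gabarapl2 (0.86). The hearts share their condition, so such values can in part reflect which groups are high or low. With group means removed, the correlations ranged from 0.45 (Nagk with Rpl11) to 0.91 (Oga with Scamp1).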

How the data were processed

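Left ventricular RNA was rRNA-depleted, made into libraries with the NEBNext Ultra II RNA kit and sequenced as paired ends on an Illumina NextSeq. Per the paper's methods and the submitters' processing notes, the authors used PRINSEQ for trimming, HISAT2 and the mm10 genome for alignment, featureCounts for reads per gene and DESeq2 for normalization. The annotation, and the strand and multi-mapping settings, were not given in the sources used here. The authors deposited a normalized signal per gene and library, the read count divided by a size factor. The same table holds the authors' own baseline comparison (fold changes and p-values), which was not used. All values of each library were whole multiples of a single step within 0.1 read, so reads were recovered by division.

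The planned test was kept. limma 3.58.1 (trend) in R 4.3.3 was fitted to log2(value + 1) of all 16 libraries in 6 groups, for the 20576 genes whose mean reached 10 normalized counts, with Benjamini-Hochberg adjustment over all of them. All pairs of replicates differed by more than sampling noise. Alternatives were edgeR 4.0.16 and DESeq2 1.42.0 on the recovered reads, other scalings, a pseudocount of 0.1, no filter, only the groups compared, the replicate number as a block, each library left out in turn and, added after the data were seen, the rRNA-related share of reads as a covariate. Scripts were tested on simulated data.

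Named genes are the 8 members, up to 4 called genes with the smallest p per list and comparison, and the 3 genes most similar to each member among those whose mean reached 100. The members and lists were chosen with earlier results of these data known. A gene of 1 list and a gene similar to a member are not reported here. Adipocyte markers did not pass the filter. Endothelial, smooth muscle, erythroid and atrial markers were also listed. After MI in PKM2fl/fl and PKM2-/- hearts, respectively, 2 and 1 of 5 endothelial, 3 and 2 of 4 smooth muscle, 0 and 0 of 4 erythroid and 1 and 1 of 4 atrial markers rose, and 1 and 2 endothelial, 0 and 1 smooth muscle and no erythroid or atrial markers fell. Promoter sequences and coordinates are from RefSeq on GRCm38.p6, the assembly of mm10, and transcript lengths from GENCODE M39.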

Additional observations from a re-analysis of the deposited data

Results flagged for a closer look

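Nagk, the GlcNAc salvage kinase, was flagged because the genotypes lay in opposite order in the 2 surgical conditions. After sham surgery all 3 PKM2-/- hearts (193 to 225 normalized counts) were below all 3 PKM2fl/fl hearts (236 to 261), and after MI all 3 PKM2-/- hearts (319 to 389) were above all 3 PKM2fl/fl hearts (239 to 297). Neither genotype difference passed in limma, at -0.25 after sham surgery (adjusted p = 0.560) and 0.44 after MI (adjusted p = 0.0992). DESeq2 called the one after MI (adjusted p = 0.0312). How many of all genes tested lie in such an opposite order was not counted. The difference between the genotypes in the MI change was 0.69 on the log2 scale, with an unadjusted p of 0.00172 and an adjusted p of 0.369 in limma, so it did not pass over all genes tested. With DESeq2 on the recovered reads it was 0.69 for Nagk with an adjusted p of 0.0903.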

How the results depend on the processing

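Of 1040 values of the 8 genes under alternatives, 1005 kept their direction where called and their side of the threshold, 21 lost the threshold, 12 gained it and 2 changed sign, and 76 values that were not called changed sign. Both reversals were Ogt after MI in PKM2-/- hearts, at 0.24 with scaling to total reads and 0.077 with total reads without rRNA-related loci. Under total-read scaling the median log2 fold change of all genes after MI was -0.174 in PKM2fl/fl and 0.523 in PKM2-/- hearts. In the main fit it was -0.0025 and 0.01. Under that scaling 0 of the 8 genes were called after MI in PKM2fl/fl hearts, against 4. With rRNA-related loci left out of the total, 4 were called. DESeq2 called 2 genes between genotypes after MI, and edgeR without a filter called 1 between genotypes after sham surgery and 1 between sham and baseline in PKM2fl/fl hearts, all against 0. Leaving out each heart in turn gave 3 to 4 calls after MI in PKM2fl/fl hearts, 4 to 5 in PKM2-/- hearts, 0 to 1 for sham against baseline in PKM2-/- hearts and 0 to 0 in the other comparisons. The Gfpt2 to Gfpt1 difference ranged from -0.43 to -0.24 and the Ogt to Oga difference from -0.04 to 0.14. The causes were not tested.

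The replicate numbers gave no sign of pairing the hearts, in that 1 of 36 same-number pairs had deviations correlated above 0.1. With so few hearts per group, and no different-number pairs set beside them, this cannot exclude a pairing. With the replicate number as a block, the counts of calls were 4 and 5 after MI. They were 0 in the genotype comparisons and 1 for sham against baseline in PKM2-/- hearts. For the ratios the block was another test, an exact sign flip of the MI minus sham differences between same-number hearts. It gave p of 0.188 for the Gfpt2 to Gfpt1 difference of -0.33 and 0.906 for the Ogt to Oga difference of 0.04. Over all genes, calls between genotypes after MI numbered 199 with limma, 1029 with DESeq2, 138 with edgeR and 1710 with edgeR without a filter, 75 with the block, 6 with only the groups compared, and 11 to 2279 when 1 heart was left out. Calls on the interaction numbered 0 with limma and 0 to 486 when 1 heart was left out.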
